A study of Homo sapiens with 12 samples.

Results

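METTL16, METTL5, ZCCHC4 and PCIF1 are RNA adenosine N6-methyltransferases that work outside the METTL3-METTL14 complex. They were taken by name, and all 4 were among the 9529 genes of the deposited table, with no low-value filter removing a member. They were followed in NOMO-1, a human acute myeloid leukaemia line, transduced with lentivirus for shNS, the non-targeting control, or for either of 2 hairpins that silence the m6A demethylase ALKBH5, selected with puromycin, and left in actinomycin D, which stops transcription, for 0, 8 or 12 h. The 12 libraries of poly(A) RNA make 6 groups of 2, replicates 1 and 2 for shNS and the hairpin lines D and E for the knockdown, named by the letters in the table's headers. No label ties a letter to a hairpin, and a knockdown group's spread includes any difference between hairpins. The labels' treatment protocol speaks of FTO lentivirus and of the drugs CS1, CS2 and DMSO, and the sample titles, which name ALKBH5 and actinomycin D, were followed. No label says whether replicates were separate cultures, and p-values therefore rest on library-to-library spread that may be purely technical.

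The 4 enzymes share a chemistry and differ in substrate. METTL16 methylates the U6 small nuclear RNA, which pairs with the 5′ splice site, and hairpins in the 3′ UTR of MAT2A, the mRNA of the enzyme that makes S-adenosylmethionine, the methyl donor of all of these reactions. METTL5, held stable by its partner TRMT112, methylates 18S ribosomal RNA, and ZCCHC4 methylates 28S ribosomal RNA. PCIF1 rides on RNA polymerase II and methylates a 2′-O-methylated adenosine next to the mRNA cap, giving m6Am.

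METTL16 reads a short sequence in the hairpins of MAT2A, and the sites are shown because they define what this enzyme acts on. The letters searched were TACAGANAA, on the sense strand of each transcript, with the match in capitals. The MAT2A 3′ UTR holds 6 matches, read from the GENCODE release 29 transcript on GRCh38.
MAT2A site 1, chr2:85543804-85543828, plus strand: gcgtaggcTACAGAGAAgccttcaa
MAT2A site 2, chr2:85544591-85544615, plus strand: tgatgtcaTACAGAGAAgtcacagg
MAT2A site 3, chr2:85544776-85544800, plus strand: ggtgtagcTACAGAGAAaccagctt
MAT2A site 4, chr2:85544891-85544915, plus strand: ggcgtaagTACAGAGAAgccatcac
MAT2A site 5, chr2:85545006-85545030, plus strand: aggtgtccTACAGAAAAaccttggg
MAT2A site 6, chr2:85545114-85545138, plus strand: tggtgtggTACAGAGAAgccagctt
Of the 8753 tested genes with a coding transcript in that annotation, 1026 (11.72%) held at least 1 match and 4 held 4 or more. MAT2A sites 1, 2, 3, 4 and 6 carry the same 9 letters, while site 5 differs within the open position of the motif.

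The members' own mRNAs differ in what they offer to the METTL3-METTL14 complex, whose commonest context is GGACT. PCIF1 (chromosome 20, 45934628 to 45948023, plus strand) has 6 such motifs in a transcript of 2747 nucleotides, or 2.18 per kilobase, more than in 93.5% of genes, against a median of 0.935 per kilobase. METTL16 (chromosome 17, 2405562 to 2511891, minus strand) has 3 in 5711 nucleotides, 3894 of them 3′ UTR, and ZCCHC4 (chromosome 4, 25312785 to 25370383, plus strand) has 1 in 2785 nucleotides. METTL5 (chromosome 2, 169810081 to 169824931, minus strand) has none in 1010 nucleotides, and its 3′ UTR of 63 nucleotides is shorter than that of all but 2.87% of genes. At least 1 GGACT was present in 91.26% of the 8753 transcripts. The 3′ UTR match nearest the stop codon is given for the members that have one, since m6A is known to be dense there.
METTL16, chr17:2419663-2419683, minus strand: tcagctctGGACTgcctctgc
ZCCHC4, chr4:25369229-25369249, plus strand: gccacactGGACTtaaattca
PCIF1, chr20:45947788-45947808, plus strand: gctagtctGGACTgctgggac
A match describes the letters only. Whether any of these adenosines was methylated was not measured.

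The deposited values are a normalised signal per gene whose unit before scaling the labels do not state, so levels are compared between libraries and never between genes. They hold no read counts, so depth is unknown. The gene total was 826000 to 953211 at 0 h, 390103 to 580217 at 8 h and 143765 to 193639 at 12 h, while the median of 46 ERCC spike-in transcripts stayed between 29.9 and 33.1. Differences are those of log2(signal + 1), a scale that shrinks the changes of low genes such as ZCCHC4, with their standard error (SE). Of 12 myeloid markers 9 were in the table, with 0 of 4 erythroid, 0 of 5 epithelial and 1 of 5 lymphoid ones. CD14, CSF1R and MPO were not analysed here. Across times 5 of the 9 myeloid markers were called higher in the knockdown, 0 lower and 4 were not called, with a median difference of 1.00. Of all genes 11.9% were called higher there. The markers' summed signal at 0 h was 2573 to 2585 in shNS and 5289 to 7041 in the knockdown. Most of that sum is CTSG (1111 to 3572 over the 0 h libraries) and ELANE (686 to 2086). The part of the markers in the members' differences was not tested. ALKBH5, the targeted gene, was lower in every knockdown library, at 84.3 and 78.6 in shNS against 25.4 (line D) and 21.2 (line E) at 0 h.

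Before transcription was stopped, METTL5 and PCIF1 were a little lower and METTL16 and ZCCHC4 a little higher in both knockdown lines, and none of the 4 differences passed the test. METTL16 stood at 17 and 14.2 in the shNS replicates against 22.6 (line D) and 18.2 (line E), a difference of 0.36 (SE 0.22). ZCCHC4 stood at 9.76 and 8.92 in shNS against 10.5 (line D) and 10.4 (line E), a difference of 0.15 (SE 0.16). For both genes the lines lay above both shNS replicates, as they did for 46.4% of all genes, and the median gene was itself higher by 0.23.

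METTL5 at 0 h was 136 and 122 in shNS against 105 (line D) and 106 (line E), a difference of -0.28 (SE 0.36). PCIF1 was 63.2 and 61.6 in shNS against 53.9 (line D) and 60.4 (line E), a difference of -0.13 (SE 0.30). Here both lines lay below both shNS replicates, which held for 6.88% of all genes, and the 2 differences were lower than those of all but 6.61% and 13.8% of genes. In limma with Benjamini-Hochberg adjustment over all genes, 0 of 4 members were called at 0 h, none had an unadjusted p under 0.05, and 1.47% of all genes were called. The adjusted p-values were 0.351 for METTL16, 0.675 for METTL5, 0.615 for ZCCHC4 and 0.841 for PCIF1. Where each library was scaled to its own median ratio, the ZCCHC4 difference turned to -0.07 and those of METTL5 and PCIF1 were -0.53 and -0.36, still not called. In bulk RNA a lower signal in some cells and fewer cells with the transcript cannot be told apart.

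**Figure D1:**
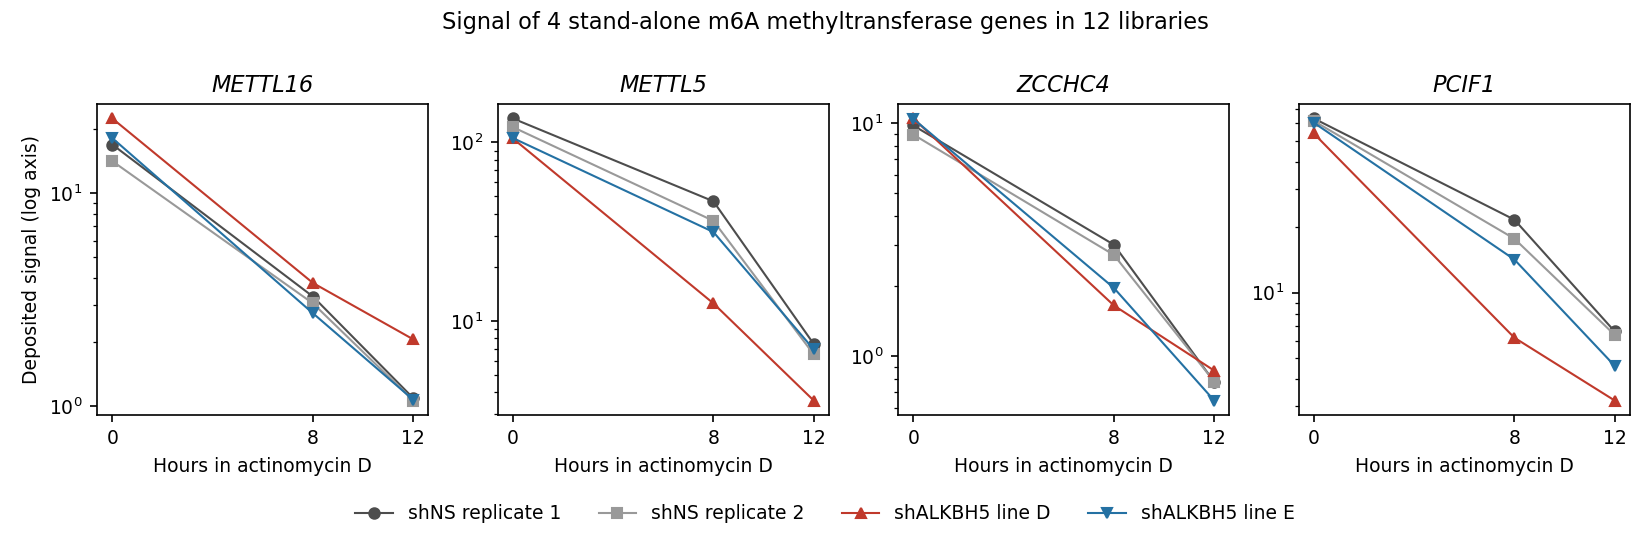
Signal of METTL16, METTL5, ZCCHC4 and PCIF1 (deposited normalised signal, log axis) against hours in actinomycin D, 1 line per shNS replicate or knockdown line. The shNS replicates lie close together at every time, and line D of METTL5 and PCIF1 lies below the other 3 libraries at 8 and 12 h.

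At 8 h the members separated more widely. METTL5 was 46.8 and 36.4 in the shNS replicates against 31.5 (line E) and 12.6 (line D), so both lines were below shNS and line D far below line E. PCIF1 gave the same order, with 21.6 and 17.7 in shNS against 14.2 (line E) and 6.21 (line D). ZCCHC4 was 3.01 and 2.72 in shNS against 1.65 (line D) and 1.96 (line E), again with no overlap. METTL16 overlapped, at 3.27 and 3.04 in shNS against 3.79 (line D) and 2.73 (line E). Lines below both shNS replicates, as for 3 of 4 members, were also found for 42.8% of all genes.

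The 8 h differences were -1.01 for METTL5 (SE 0.36), -0.98 for PCIF1 (SE 0.30), -0.46 for ZCCHC4 (SE 0.16) and 0.03 for METTL16 (SE 0.22), against -0.23 for the median gene. In limma 0 of 4 members were called after Benjamini-Hochberg adjustment, with 4.93% of all genes called. Adjusted p was 0.106, 0.0720, 0.0992 and 0.955 in the same order, and 3 members had an unadjusted p under 0.05. With the line or replicate as a block, METTL5, PCIF1 and ZCCHC4 were called (adjusted p = 1.04e-07, 8.69e-07 and 0.0221), but that fit called 36.6% of all genes, with 31.8% of all genes lower and 4.75% higher in the knockdown. Line D lay farther from shNS than line E. With the 8 h library of line D left out, METTL5 stood at -0.38, PCIF1 at -0.44 and METTL16 at -0.16. With the 8 h library of line E left out, METTL5 stood at -1.64, PCIF1 at -1.51 and ZCCHC4 at -0.54.

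By 12 h the members were low in every library, and PCIF1 alone kept both lines under both shNS replicates. PCIF1 was 6.63 and 6.39 in shNS against 3.19 (line D) and 4.61 (line E), an order shared by 25.0% of all genes. METTL5 was 7.44 and 6.50 in shNS against 3.59 (line D) and 6.94 (line E), the latter between the shNS values. METTL16 was 1.09 and 1.06 in shNS against 2.06 (line D) and 1.07 (line E), so line D alone lay apart. ZCCHC4 was 0.777 and 0.779 in shNS against 0.868 (line D) and 0.646 (line E), on either side of shNS.

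The 12 h differences were -0.63 for PCIF1 (SE 0.30), -0.40 for METTL5 (SE 0.36), 0.28 for METTL16 (SE 0.22) and -0.02 for ZCCHC4 (SE 0.16). In limma 0 of 4 members were called (Benjamini-Hochberg adjusted p from 0.293 for PCIF1 to 0.964 for ZCCHC4), none had an unadjusted p under 0.05, and 1.02% of all genes were called. With the block PCIF1 was called (adjusted p = 0.00321), along with 24.4% of all genes. The METTL5 difference lay in line D: with the 12 h library of line D left out, METTL5 stood at -0.0039 and PCIF1 at -0.42. With the 12 h library of line E left out, METTL5 stood at -0.79 and PCIF1 at -0.84.

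Averaged over the 3 times, PCIF1 alone among the members was called, lower in the knockdown, and METTL5 differed by nearly as much. The PCIF1 difference was -0.58 (SE 0.18, limma adjusted p = 0.0301, n = 6 against 6). PCIF1 was lower in 6 of 6 knockdown libraries than in both shNS replicates of the same time, as were 5.24% of all genes. Those 6 libraries come from 2 lines. METTL5 stood at -0.56 (SE 0.20, adjusted p = 0.0524), METTL16 at 0.22 (SE 0.13, 0.239) and ZCCHC4 at -0.11 (SE 0.12, 0.523). The median gene stood at 0.02, and 21.1% of all genes were called, 11.9% higher and 9.14% lower, so 1 of 4 members called is close to the background. That background moved with the setting. It was 9.63% with an estimated correlation within lines and 5.14% on line means. Scaling to ribosomal protein genes raised the median gene to 0.32 and called 50.6% of genes higher and 3.02% lower, and median-of-ratios scaling 19.4% higher and 19.1% lower. The PCIF1 and METTL5 differences were lower than those of all but 5.35% and 5.71% of genes.

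**Figure D2:**
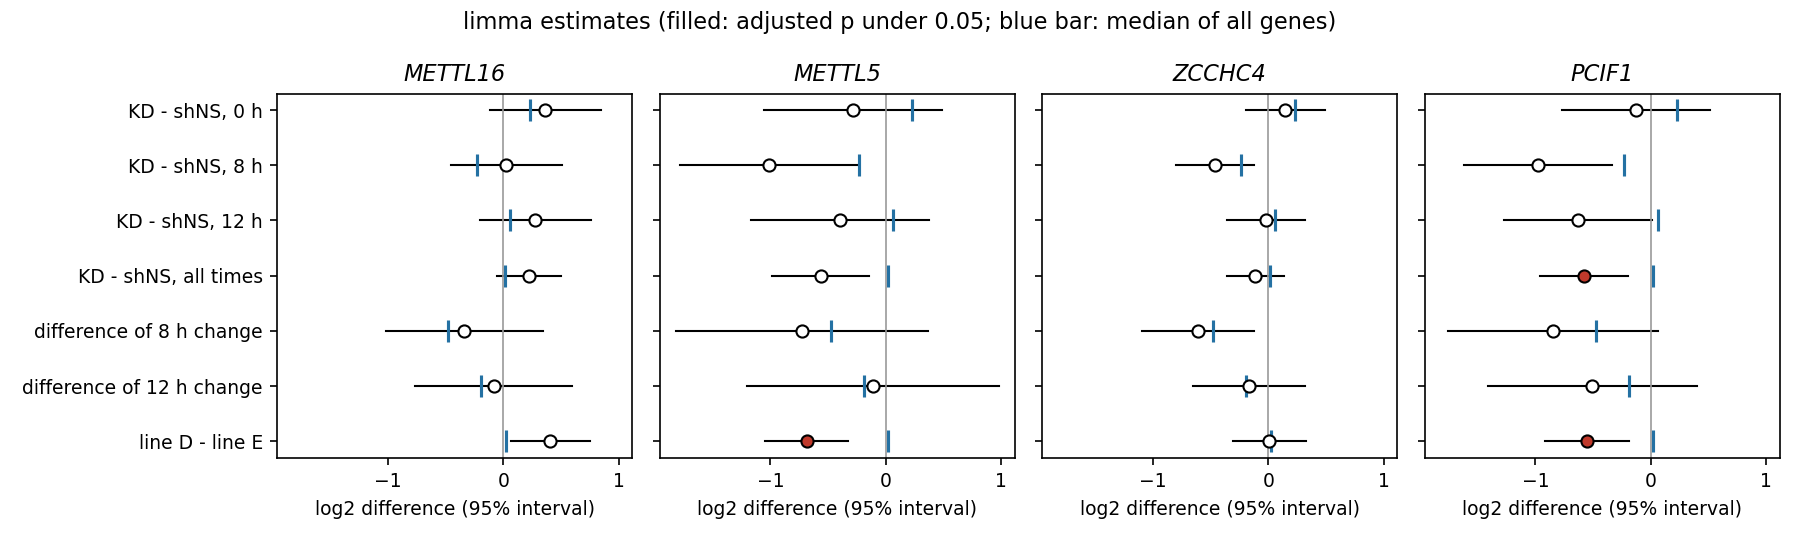
Log2 difference (signal + 1) of each member for knockdown (KD) minus shNS at 0, 8 and 12 h and across times, for the difference of the 8 and 12 h changes and for line D minus line E, as circles (filled where called) with 95% intervals, and blue bars for the median of all genes. PCIF1 across times (-0.58) and METTL5 (-0.69) and PCIF1 (-0.55) between lines are the filled ones.

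The PCIF1 call depended on how the libraries of a line were treated. It was lost on line means, 2 against 2 (adjusted p = 0.145), and with an estimated correlation within lines (adjusted p = 0.0875), while the block, which called 36.1% of all genes, gave 0.000125 for PCIF1 and 0.000170 for METTL5. It was also lost without the 12 h libraries (0.198), without the 8 h libraries (-0.38, 0.114), with scaling to ribosomal protein genes (-0.26, 0.2496), and without any 1 of 5 libraries: the 8 h (0.0833) or 12 h (0.0668) library of shNS replicate 1, the 8 h (0.0658) or 12 h (0.0633) library of replicate 2, or line D at 12 h (0.0783). METTL5 passed in 7 of 25 alternatives, 3 of them leaving out line E at 0 h (adjusted p = 0.0435), 8 h (0.0148) or 12 h (0.0178).

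The hairpin lines differed from each other in 2 of 4 members. Averaged over times, METTL5 in line D stood apart from line E by -0.69 (SE 0.18, limma adjusted p = 0.00147), and PCIF1 by -0.55 (SE 0.18, adjusted p = 0.0131). METTL16 leaned the other way, at 0.41 (SE 0.17, adjusted p = 0.0637), and ZCCHC4 stood at 0.01 (SE 0.16, adjusted p = 0.976). Of all genes 29.1% were called in this comparison, and each side is 1 line, so the p-values speak for these libraries only. The SE here is a spread shared by genes of similar mean signal, not each member's own. The p-values therefore do not allow for how far a member's line difference varied between times.

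For METTL5 the lines lay within 0.01 of each other at 0 h and farthest apart at 8 h. Line D minus line E was -0.01, -1.26 and -0.79 at 0, 8 and 12 h for METTL5, and -0.16, -1.08 and -0.42 for PCIF1. The median gene gave 0.12, -0.23 and 0.16. Line D kept less of its median gene at 8 h than line E did, 23.9% against 33.6%, and the METTL5 and PCIF1 calls were both lost without line D at 8 h (-0.35 and -0.25, adjusted p = 0.110 and 0.237). PCIF1 was also lost without line D at 12 h (0.0728), line E at 0 h (0.0683) or line E at 8 h (0.115). METTL16 passed without line D at 8 h (0.49, adjusted p = 0.00589) or shNS replicate 1 at 8 h (0.0379).

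**Figure D3:**
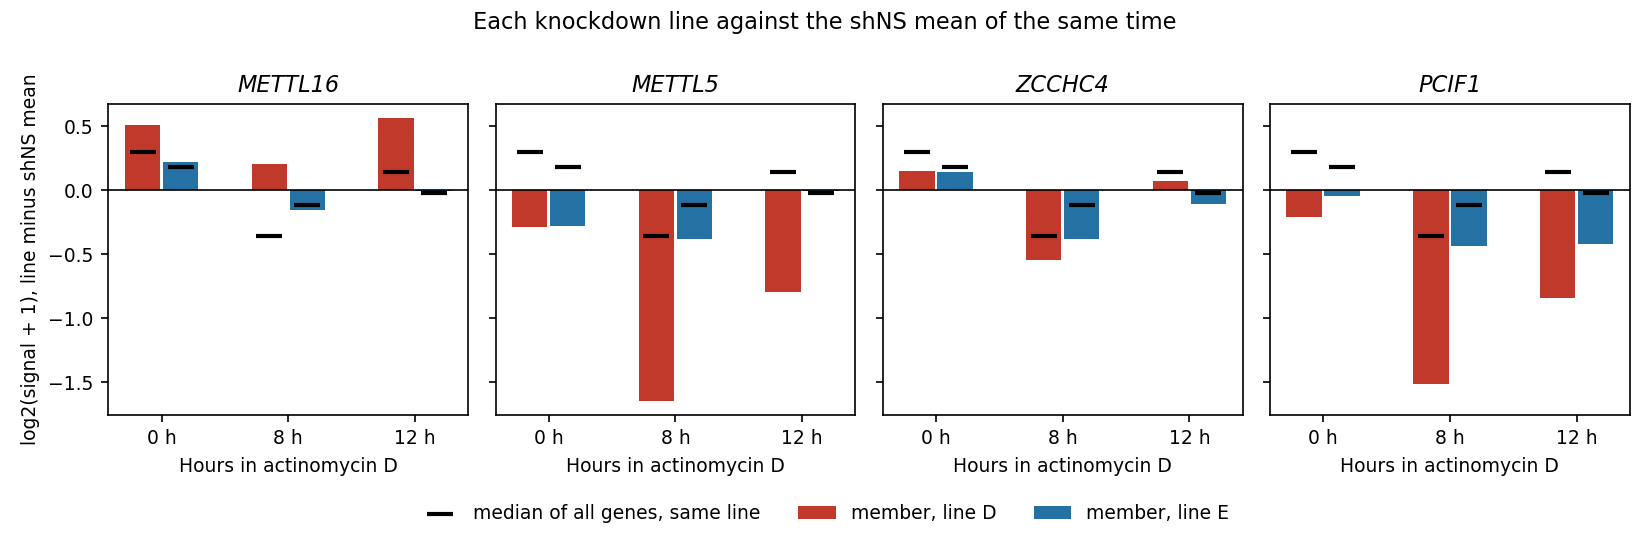
Difference from the shNS mean of the same time (log2 of signal + 1) for line D and line E at 0, 8 and 12 h, 1 panel per member, as red (D) and blue (E) bars, with the median of all genes in the same line as a black dash. METTL5 and PCIF1 in line D reach -1.64 and -1.51 at 8 h, while line E stands at -0.38 and -0.44.

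Every member fell in actinomycin D in both arms, like nearly every gene. All 4 were called lower by 8 h in shNS, as were 82.2% of genes, and by 12 h in shNS (99.5%), by 8 h in the knockdown (96.0%) and by 12 h in the knockdown (99.6%). These falls are relative to the deposited scaling, under which the ERCC signal was steady. Scaled instead to each library's median ratio, which sets the typical gene near no change, 23.6% of genes were lower and 18.9% higher by 8 h in shNS, and 7 of the members' 16 calls were lost. METTL5 then stood at -0.33 (adjusted p = 0.476) and PCIF1 at -0.35 (0.324) by 8 h in shNS, and PCIF1 at -0.23 (0.498) by 12 h. In the knockdown METTL5 (-0.53, 0.253) and PCIF1 (-0.69, 0.0648) were lost by 8 h, and METTL16 (-0.47, 0.131) and PCIF1 (-0.64, 0.0811) by 12 h. The log2 change by 12 h in shNS was -4.03 for METTL5, -3.08 for PCIF1, -2.99 for METTL16 and -2.54 for ZCCHC4, and -2.56 for the median gene. In the knockdown it was -4.14, -3.58, -3.08 and -2.71 in the same order, and -2.80 for the median gene. This scale shrinks the falls of METTL16 and ZCCHC4, whose 12 h signals were low, so its order is not an order of percent left. At 12 h in shNS METTL16 kept 6.41% and 7.47% of its 0 h signal and ZCCHC4 7.96% and 8.73%. PCIF1 kept 10.5% and 10.4% there, and the median gene 11.9% and 12.9%.

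METTL16 mRNA was the least retained member at 8 h in shNS. It kept 19.3% and 21.4% of its 0 h signal in the shNS replicates against 16.8% (line D) and 15% (line E). ZCCHC4 kept 30.8% and 30.5% in shNS against 15.8% (line D) and 18.8% (line E). METTL5 kept 34.3% and 29.8% in shNS against 11.9% (line D) and 29.8% (line E). PCIF1 kept 34.2% and 28.7% in shNS against 11.5% (line D) and 23.5% (line E). The median gene kept 42.2% and 41.1% in shNS against 23.9% (line D) and 33.6% (line E), so each member lay below the median gene in every library at 8 h.

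At 12 h METTL5 was the lowest member in both shNS replicates and in line D. It kept 5.46% and 5.33% in shNS against 3.40% (line D) and 6.55% (line E), where the median gene kept 11.9%, 12.9%, 10.9% and 10.7%. METTL16 kept 6.41% and 7.47% in shNS against 9.13% (line D) and 5.87% (line E). ZCCHC4 kept 7.96% and 8.73% in shNS against 8.30% (line D) and 6.20% (line E), and PCIF1 10.5% and 10.4% in shNS against 5.92% (line D) and 7.63% (line E). METTL5 and METTL16 thus changed order in both shNS replicates between 8 and 12 h. In line D METTL5 was already under METTL16 at 8 h, and in line E METTL16 was lowest at both times.

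**Figure D4:**
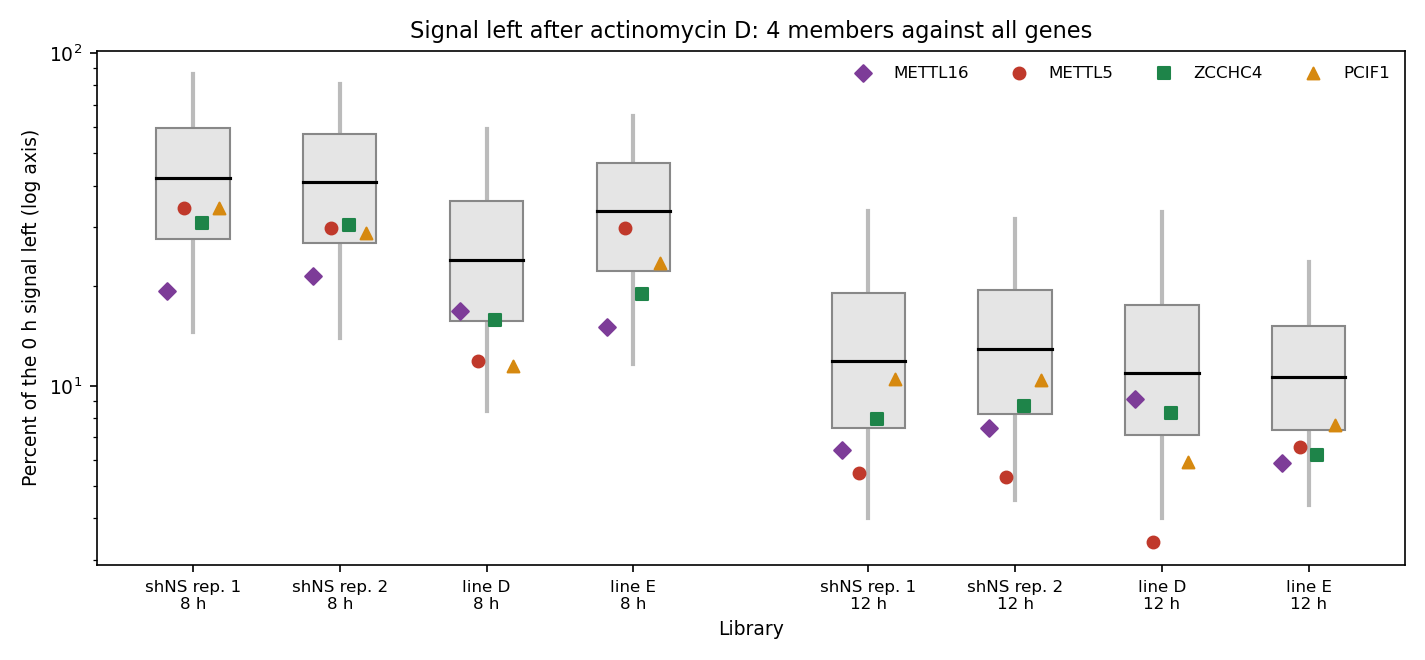
Percent of the 0 h signal left at 8 and 12 h in actinomycin D for each member in each shNS replicate and knockdown line (symbols, log axis), over boxes for the middle quartiles of all genes with their median and grey bars for the 5th to 95th percentile. All members lie below the median gene at 8 h, and METTL5 in shNS goes from 34.3% and 29.8% to 5.46% and 5.33%.

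Each change was also tested after subtracting, in each library, the median level of all genes. On this scale METTL5 fell by 12 h in shNS (-1.16, SE 0.33, limma adjusted p = 0.0154) and in the knockdown (-1.11, adjusted p = 0.0203), where the median of all genes' own changes was 0.32 and 0.24. The shNS call was lost without either shNS replicate at 0 h (adjusted p = 0.0650 and 0.0672) or at 12 h (0.0564 and 0.0753), and the knockdown call without line D at 0 h (0.0584), line D at 12 h (-0.66, 0.125) or line E at 0 h (0.0788). ZCCHC4 rose on this scale by 0.34 in shNS (adjusted p = 0.0296) and 0.33 in the knockdown (0.0338), close to those medians. Centred on the median change, an alternative added after the data were seen, ZCCHC4 stood at 0.02 and 0.06, neither called, and with a pseudocount of 0.1 at -0.21 and -0.26. The ZCCHC4 calls were also lost without any of the 4 shNS libraries of 0 and 12 h (adjusted p up to 0.141), and in the knockdown without any of 9 of the 12 libraries (up to 0.133).

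By this scale 2 of 4 members were called at 12 h in each arm, where 54.5% of genes were called in shNS and 50.1% in the knockdown. At 8 h 0 of 4 were called in either arm, against 53.0% and 52.3% of all genes. METTL16 at 8 h in shNS, with -0.53 and an adjusted p of 0.0693, was the 1 member with an unadjusted p under 0.05 there. METTL16 passed in 4 of 17 alternatives in shNS (limma adjusted p down to 0.0029, with the block) and in 4 of 19 in the knockdown, line E alone among them. By 8 h in shNS the block called 4983 of 9529 genes higher and 2276 lower on this scale. In the knockdown at 8 h METTL5 passed in 2 of 19 (down to 4.6e-05), ZCCHC4 in 2 of 18 (down to 0.029) and PCIF1 in 5 of 19 (down to 4.3e-05), where the block called 75.1% of all genes and line D alone 78.0%. METTL5 in the knockdown at 8 h was called at -0.85 without line E at 8 h (adjusted p = 0.0497) and stood at 0.07 without line D at 8 h. PCIF1 in the knockdown at 12 h stood at -0.55 (adjusted p = 0.0977) and passed with the block (0.00146, with 72.7% of all genes called), without line D at 8 h (0.0346), line E at 8 h (0.0345) or line E at 12 h (-0.81, 0.0410), and centred on the median change (-0.81, 0.0285).

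Whether ALKBH5 knockdown changed how fast the members fell was tested directly, and no difference was called. By 8 h the knockdown minus shNS difference of the change was -0.85 for PCIF1, -0.73 for METTL5, -0.61 for ZCCHC4 and -0.34 for METTL16, and the median gene stood at -0.48. Without line D at 8 h METTL5 stood at -0.09 and PCIF1 at -0.31, and without line E at 8 h at -1.36 and -1.39, so the size of both rests on line D. In limma 0 of 4 members and 0.00% of all genes were called after Benjamini-Hochberg adjustment, while 1 member, ZCCHC4, and 1560 genes had an unadjusted p under 0.05. With the block PCIF1, METTL5 and ZCCHC4 were called (adjusted p = 0.0120, 0.0223 and 0.0460), and so were 26.2% of all genes, nearly all of them lower (26.1%). By 12 h the differences were -0.51, -0.11, -0.17 and -0.09 in the same order, with a median gene at -0.19. There 0 of 4 members and 0.00% of genes were called, and 0 members and 337 genes had an unadjusted p under 0.05. In simulated data of 9529 genes with independent noise, the 8 h test recovered 14% of differences of 1 log2 unit and 94% of differences of 2. Under that noise, differences of the members' size could be missed. The shares cannot show how the test performs with the correlation within knockdown lines seen in the data.

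METTL5 shares 572 exonic bases with SSB, which lies on the opposite strand and encodes the La protein. The labels name a stranded kit, but none gives the strand setting of the counting. Whether reads of the overlap were assigned by strand is therefore unknown, and METTL5 values are uncertain to that extent. SSB, looked up after the METTL5 values were seen, differed by 0.46 at 0 h, -0.35 at 8 h and 0.45 between line D and line E, where METTL5 gave -0.28, -1.01 and -0.69. PCIF1 shares 177 exonic bases with the antisense gene AL162458.1, which was not analysed here.

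The known target and partner did not pass the test in any comparison of knockdown with shNS in the main fit. MAT2A, whose 3′ UTR sites are printed above, was 220 and 207 in shNS at 0 h against 358 (line D) and 275 (line E), a difference of 0.55 (SE 0.24, limma adjusted p = 0.197), and at 8 h the groups stood at 86.5 and 80.6 against 76.0 and 74.8. At 12 h MAT2A was 23.8 and 23.0 in shNS against 35.5 (line D) and 21.5 (line E). TRMT112 was 85.0 and 78.7 in shNS at 0 h against 119 (line D) and 107 (line E), a difference of 0.46 (SE 0.20, adjusted p = 0.213), so METTL5 and its partner lay on opposite sides of shNS. Across times TRMT112 stood at 0.17 (SE 0.14, adjusted p = 0.412) and MAT2A at 0.21 (SE 0.16, 0.340). Under ribosomal protein gene scaling both were called higher across times, as were 4825 of 9529 genes.

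Of the 78 genes measured in 8 lists around the members, each gene taken once, 15 were called across times, 5 higher and 10 lower. That is 19.2%, close to the 21.1% of all genes. Of 6 measured TRMT112 partner genes, TRMT112 and METTL5 included, 0 rose and 2 fell, the tRNA guanosine methyltransferase genes THUMPD3 (-0.59) and TRMT11 (-0.59), and the list's median was -0.47. Of 13 ribosomal RNA modification genes, ZCCHC4 and METTL5 included, 4 rose and 0 fell. They were the 18S methyltransferase gene EMG1 (0.55), the ribosome biogenesis gene FTSJ3 (0.59) and the 28S cytosine methyltransferase genes NOP2 (0.54) and NSUN5 (0.41), with a list median of 0.10. Of 11 cap formation genes 2 fell, PCIF1 and RNMT (-0.76), which encodes the cap guanine-N7 methyltransferase, and 0 rose, with a median of -0.14.

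Of 11 measured U6 genes, METTL16 included, 0 rose and 2 fell, LSM5 (-0.74) and LSM6 (-0.54), subunits of the ring that binds the U6 3′ end, and the median was 0.08. In the METTL3-METTL14 complex 1 of 7 measured genes fell, WTAP (-0.59), its targeting subunit, with a median of -0.08. Of 12 S-adenosylmethionine cycle genes 1 rose, the spermidine synthase gene SRM (0.55), and 0 fell, with a median of -0.13. Among 9 readers 0 rose and 1 fell, IGF2BP2 (-0.66), and among 12 other METTL genes 0 rose and 2 fell, METTL9 (-0.60), a protein histidine methyltransferase gene, and METTL15 (-0.46), a mitochondrial 12S methyltransferase gene. No list was tested as a set. With an estimated correlation within lines 6 of the 15 list calls held, EMG1, FTSJ3, IGF2BP2, RNMT, SRM and TRMT11, and on line means 1 held, RNMT. Under ribosomal protein gene scaling 8 of the 15 held and none changed sign, while 34 of 78 list genes were called higher and 3 lower. The medians of the cap formation (0.11), METTL3-METTL14 complex (0.22), S-adenosylmethionine (0.20) and other METTL (0.20) lists were then above 0.

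Across the 12 libraries, METTL5 and PCIF1 had the most alike patterns among the members once each library's median level was subtracted, with a Pearson r of 0.79. METTL5 and ZCCHC4 gave -0.58, METTL16 and METTL5 -0.50, METTL16 and PCIF1 -0.42, METTL16 and ZCCHC4 0.22, and ZCCHC4 and PCIF1 -0.02. The genes most like METTL16 were FKBP15 (r = 0.97), TRIP4 and KLHL20, and those most like METTL5 were HLTF (0.97), RSL24D1 and ATL3. For ZCCHC4 they were ZNF212 (0.96), ANKRD49 and ARHGAP26, and for PCIF1 ASAP1 (0.95), INSIG2 and IFNGR1. These 12 points share lines and times and are a description only.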

How the data were processed

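The deposited table holds the authors' normalised expression signal per gene symbol for 12 libraries. STAR, RSEM and GRCh38 are named in the submitters' processing notes, with no versions or roles. No label states the scaling. A stranded kit was used, per the labels. The values hold no counts.

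limma 3.58.1 in R 4.3.3 (trend, empirical Bayes) was run on log2(signal + 1), and a Benjamini-Hochberg adjusted p under 0.05 over all 9529 genes was called. Every gene had a mean of at least 1. Group means of the 6 groups served the comparisons within a time and over time, and additive models of time with knockdown or with line served the rest. Named genes were the members, ALKBH5, MAT2A, TRMT112, the 3 genes most like each member, and called list genes. Named outside that rule were overlapping genes (SSB, after values were seen), myeloid markers, uncalled METTL3 and RBM15B, and the first genes by other measures of likeness. The members and lists were chosen with earlier results of these data known.

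Same-lettered knockdown libraries are taken to carry the same hairpin, since each letter recurs at every time, and their deviations correlated (0.777, 0.657 and 0.900), while same-numbered shNS libraries gave 0.271, 0.065 and 0.138, so the block rests on the knockdown lines. Alternatives were a pseudocount of 0.1, a mean of at least 5, other scalings, no trend, the block, each line alone, line means, a correlation within lines, times left out and each library left out. Where leaving one out leaves a single library in a group, that library takes the spread of the other groups. On simulated data the test recovered 55% of genes changed by 1 log2 unit at 0 h, 66% at 8 h, 99% across times and 81% between lines. The simulated libraries had independent noise, without the correlation within knockdown lines seen in the data. The shares across times and between lines therefore cannot show how the tests perform with that correlation.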

Additional observations from a re-analysis of the deposited data

Results flagged for a closer look

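METTL5 and PCIF1 differed between the hairpin lines when the lines' departures from shNS were compared directly. Line D stood below line E by -0.69 for METTL5 and by -0.55 for PCIF1 on the log2 scale, averaged over 0, 8 and 12 h. Of all genes 29.1% were called in this comparison. For METTL5 the lines differed by -0.01 at 0 h and by -1.26 at 8 h. Both calls were lost without line D at 8 h, where METTL5 stood at -0.35 and PCIF1 at -0.25.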

How the results depend on the processing

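Of 1185 recomputed values for 60 results, 1036 kept their direction and side of the threshold, 45 lost a call, 62 gained one and 42 changed sign. The filter removed no gene, which makes its omission void. ZCCHC4, with a mean under 5, has no value under the stricter filter. The cause of the changes was not tested. Fits of 1 line hold 1 knockdown library per time. In their comparisons within a time and over time the spread comes from the shNS libraries alone, so no variation between knockdown libraries enters.

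With the replicate block, calls were gained at 8 h by METTL5 (-1.01), ZCCHC4 (-0.46) and PCIF1 (-0.98), at 12 h by PCIF1 (-0.63), across times by METTL5 (-0.56), in the relative knockdown change by 12 h by PCIF1 (-0.55), and in the difference of the 8 h change by METTL5 (-0.73), ZCCHC4 (-0.61) and PCIF1 (-0.85). The block called 36.6% of all genes at 8 h, 24.4% at 12 h, 36.1% across times and 26.2% in the difference of the 8 h change. With line D alone, which called 52.5%, 56.2%, 43.1% and 36.4% of all genes at 0, 8 and 12 h and across times and 66.0% in the difference of the 8 h change, calls were gained by METTL16 at 0 h (0.51), 12 h (0.56) and across times (0.43), METTL5 at 8 h (-1.64), 12 h (-0.79) and across times (-0.91), ZCCHC4 at 8 h (-0.54), PCIF1 at 8 h (-1.51), 12 h (-0.84) and relative by 12 h (-0.66), and in the difference of the 8 h change by METTL5 (-1.35), ZCCHC4 (-0.69) and PCIF1 (-1.31). Signs turned for ZCCHC4 at 12 h (0.071) and relative by 8 h (0.079), and for METTL16 relative by 12 h (0.10) and in the 12 h difference of changes (0.050). With line E alone, which called 27.7% of all genes at 8 h, ZCCHC4 (-0.38) and PCIF1 (-0.44) were called at 8 h and PCIF1 relative by 12 h (-0.43), ZCCHC4 relative by 12 h was not (0.23), and signs turned for METTL16 at 8 h (-0.16) and 12 h (-0.0035) and METTL5 in the 12 h difference (0.28).

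Median-of-ratios scaling called METTL5 across times (-0.59) and METTL16 between lines (0.47), and turned ZCCHC4 at 0 h (-0.070), METTL16 in the 8 h (0.15) and 12 h (0.21) differences of changes and METTL5 in the latter (0.016). Ribosomal protein gene scaling called METTL16 at 12 h (0.63), across times (0.51) and between lines (0.39), lost PCIF1 across times (-0.26), and turned ZCCHC4 at 12 h (0.21), across times (0.13), in the 12 h difference (0.017) and between lines (-0.011), and METTL16 (0.073 and 0.22) and METTL5 (0.15) in the differences of changes. Of 9529 genes it called 2419 higher and 86 lower at 12 h and 4825 higher and 288 lower across times. Between lines it called 1619 higher and 2305 lower in line D. ERCC rescaling called METTL16 between lines (0.39), with 1535 of 9529 genes called higher and 1778 lower in line D, and turned ZCCHC4 there (-0.010). A pseudocount of 0.1 called METTL5 across times (-0.60) and METTL16 between lines (0.55), and turned ZCCHC4 relative by 8 h (-0.13) and 12 h (-0.21 in shNS, -0.26 in the knockdown) and METTL16 in the 12 h difference (0.054). Centring on the median change turned ZCCHC4 relative by 8 h in shNS (-0.22), lost it by 12 h (0.025 and 0.064) and called PCIF1 (-0.81). Across times PCIF1 was lost without the 8 h (-0.38) or 12 h (-0.55) libraries, on line means and with a correlation of 0.251 within lines (both -0.58), and ZCCHC4 turned without the 8 h libraries (0.064).

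Over all genes across times, 1137 were called higher and 871 lower, against 519 and 399 with the correlation within lines, 259 and 231 on line means, 1764 and 1679 with the block, 1852 and 1821 under median-of-ratios scaling, 4825 and 288 under ribosomal protein gene scaling, 246 and 184 without the 12 h libraries and 1207 and 264 without the 8 h libraries. At 8 h the counts were 40 higher and 430 lower, against 367 and 322 under median-of-ratios and 1155 and 35 under ribosomal protein gene scaling, and 29 genes in all without line D at 8 h. By 8 h in shNS 7830 genes were lower, against 2245 under median-of-ratios scaling, where 2 of 4 members were still called. Over both arms and both times, 7 of the members' falls were not called under that scaling.

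Leaving out each library in turn, METTL16 ranged from -0.16 to 0.21 at 8 h, -0.0035 to 0.56 at 12 h, -0.27 to 0.18 relative by 12 h in the knockdown, -0.37 to 0.20 in the 12 h difference and 0.33 to 0.49 between lines. METTL5 ranged from -1.64 to -0.38 at 8 h, -0.68 to -0.35 across times, -1.22 to -1.09 relative by 12 h in shNS, -0.79 to -0.0039 at 12 h, -0.85 to 0.070 and -1.56 to -0.66 relative by 8 and 12 h in the knockdown, -1.36 to -0.095 in the 8 h and -0.51 to 0.28 in the 12 h difference and -1.01 to -0.35 between lines. ZCCHC4 ranged from -0.54 to -0.38 at 8 h, -0.11 to 0.071 at 12 h, -0.011 to 0.089 and 0.30 to 0.37 relative in shNS, -0.17 to 0.012 and 0.26 to 0.40 relative in the knockdown and -0.080 to 0.18 between lines. PCIF1 ranged from -1.51 to -0.44 at 8 h, -0.84 to -0.42 at 12 h, -0.66 to -0.39 across times, -1.39 to -0.31 in the 8 h difference, -0.81 to -0.28 relative by 12 h in the knockdown and -0.83 to -0.25 between lines. The nearest genes changed with the measure of likeness: METTL5 had WWC3 first without centring and APPL1 by Spearman rho, PCIF1 had RRAGC and CAPN7, METTL16 SETD1B and RNF216, and ZCCHC4 ANKRD49 and JMJD6.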

Other observations

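METTL5 kept little of its 8 h signal by 12 h, a pattern singled out after its values were seen and so given as a description. Between 8 and 12 h it kept 15.9% and 17.9% of its 8 h signal in the shNS replicates against 28.6% (line D) and 22.0% (line E). The median gene kept 30.0%, 32.9%, 48.1% and 32.9%. The share of genes that kept less than METTL5 was 0.483% and 0.273% in shNS against 1.95% (line D) and 0.693% (line E). PCIF1 kept 30.6%, 36.1%, 51.4% and 32.5% over the same hours, near the median gene in each library.

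At 8 h METTL14 (-0.71) and WTAP (-1.0) of the METTL3-METTL14 complex were lower in the knockdown, 2 of 7 measured genes, with limma adjusted p-values of 0.0473 and 0.0248, where 4.51% of all genes were called lower and 0.420% higher. METTL3 (0.07) and RBM15B (0.06) lay on the other side of 0, not called. RNMT of the cap list stood at -1.17 (adjusted p = 0.0213) there and PCIF1 at -0.98, which was not called. The median gene stood at -0.23. Over all genes the 430 lower calls at 8 h became 35 under ribosomal protein gene scaling. Whether the METTL14, WTAP and RNMT calls at 8 h hold under other scalings or in each line was not tested.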
